A study of Mus musculus with 10 samples.

Results

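The miR-181 family is a group of 4 mature miRNAs, miR-181a, miR-181b, miR-181c and miR-181d, and it was taken from the liver miRNA table by name. Those 4 names were found among the 285 mature miRNAs listed, each once and without an arm suffix, and no minor-strand form of the family was among the listed names. The study sequenced small RNA from bulk liver of mice with a liver knockout of Tsc1 (L-Tsc1KO, labelled TSC1 mutant) and of littermate controls, 5 labelled replicates per genotype, all at 14 weeks of age. Tsc1 encodes a subunit of the TSC complex, which restrains the growth kinase complex mTORC1, and the comparison asks how its loss alters liver miRNAs. The sources used here do not give the driver of the knockout or the strain. Whether replicates were processed apart is not stated either, so p-values measure only the spread between these libraries.

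Mature miRNAs guide Argonaute proteins to messenger RNAs mainly through pairing of bases 2 to 8, the seed, so members that share a seed can bind overlapping sets of targets. The miR-181 family is best known from lymphocytes, where miR-181a tunes the sensitivity of T cell receptor signalling during thymic development, and from endothelium, where miR-181b dampens NF-kappaB signalling. In liver the family has been linked to TGF-beta signalling and to progenitor-like tumour cells.

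The 4 mature sequences are shown because the shared seed defines the family and the few bases outside it are all that separates the members. They are the RefSeq entries for the 5p strands (GRCm38.p6), written 5′ to 3′ with the seed in capitals, and all 4 listed names matched an entry by adding the 5p suffix.
miR-181a: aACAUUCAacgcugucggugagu
miR-181b: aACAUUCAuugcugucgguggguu
miR-181c: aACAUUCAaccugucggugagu
miR-181d: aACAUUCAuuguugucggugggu

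The seed was identical in the 4 members, and among 1679 mature mouse names in the RefSeq table no other name carried it. Outside the seed the members form 2 near-identical couples. Counting from the 5′ end, miR-181c was miR-181a with 1 base missing, at position 11. miR-181d differed from miR-181b by the substitution C12U and by the lack of the last base. Between miR-181a and miR-181b the substitutions were A9U, C10U and A21G, beside 1 added base at the 3′ end of miR-181b. How the authors' counting assigned a read that fits more than 1 member is not stated, so the split within each couple is uncertain. If such reads were dropped or counted more than once, the family sum is affected as well.

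The genome holds 6 hairpins of the family in 3 couples on 3 chromosomes (GENCODE M21, GRCm38). Mir181a-1 (chr1:137966455-137966541) and Mir181b-1 (chr1:137966639-137966718) lie on the plus strand, 97 bases apart, overlap an exon of the long non-coding RNA A430106G13Rik and lie in an intron of the transcript Gm4258. Both also lie in an intron of the long non-coding RNA Gm26936, which runs on the opposite strand. Mir181a-2 (chr2:38852735-38852810) and Mir181b-2 (chr2:38853830-38853918) lie 1019 bases apart on the plus strand, inside an intron of Nr6a1, which runs on the opposite strand. Mir181b-2 also overlaps an exon of Gm44144 on the minus strand. Mir181c (chr8:84178873-84178961) and Mir181d (chr8:84178716-84178787) lie 85 bases apart on the minus strand in an intron of Nanos3, in its own direction. The mature miR-181a and miR-181b each come from 2 hairpins with the same 5p sequence, so their values cannot be divided between chromosomes 1 and 2, while miR-181c and miR-181d each have a single source.

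The listed miRNAs held between 6228497 and 12129069 reads per library. The hepatocyte list (miR-122, miR-192, miR-194, miR-148a and miR-802) made up the tissue's most abundant signal of the marker lists in every library, at 3424630 to 5492140 normalised reads in controls and 3713770 to 4565320 in mutants. Control replicate 2 stood apart by its biliary epithelial list, 36779 normalised reads against 5035 to 6127 in the other 4 controls, and by its striated muscle list, 5638 against 268 to 559. The libraries numbered 1 in both genotypes deviated alike from their groups across all miRNAs. Member values that turn or move by much without these libraries are given both ways.

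No member of the family passed the test between genotypes. Of the 4 members 0 were higher and 0 were lower in Tsc1 mutant liver at a limma adjusted p of 0.05, where 10.9% of all 285 miRNAs were called higher and 2.11% lower. At an unadjusted limma p below 0.05 the count was 1 of 4, miR-181b, which was lower, as were 8.07% of all miRNAs at that p. By limma voom, run on whole reads, the count was also 0. The 4 log2 fold changes, on the scale of log2(normalised reads + 1), ran from -0.31 to -0.05 with a median of -0.19, beside a median of -0.06 over all 285.

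**Figure D1:**
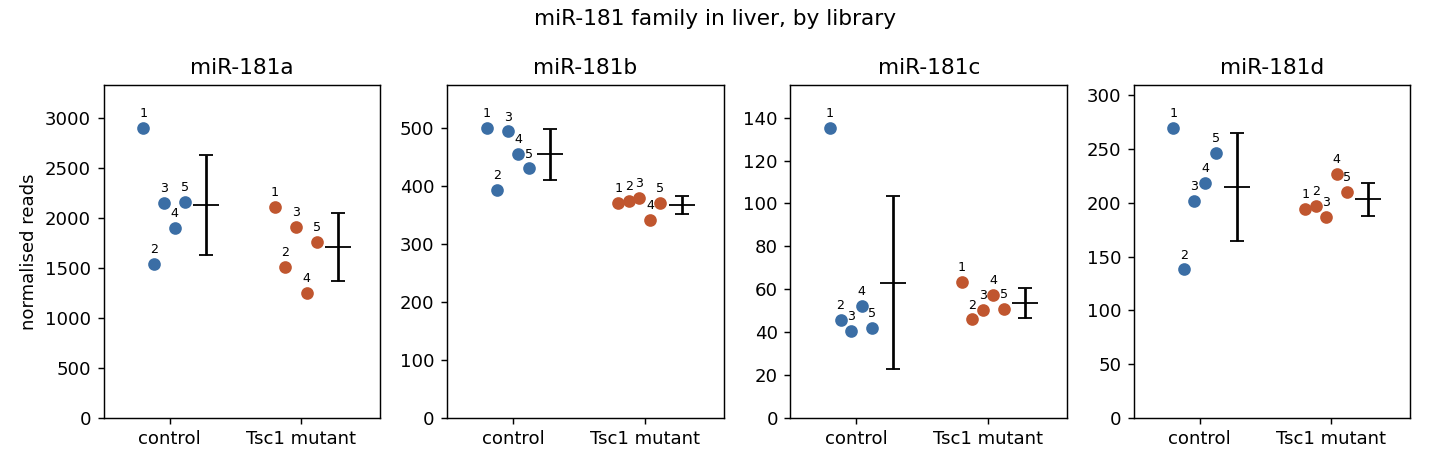
Normalised reads (linear axes from 0) of miR-181a, miR-181b, miR-181c and miR-181d in each of 5 control and 5 Tsc1 mutant livers. Points are libraries with their replicate number and bars show mean and SD. The miR-181b groups do not overlap, and control replicate 1 stands far above the other controls for miR-181c at 135 normalised reads.

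miR-181a, the T cell receptor tuner of the family, was its most abundant member, ranked 85 of 285 by mean level. Its normalised reads in control replicates 1 to 5 were 2894, 1539, 2148, 1894 and 2157. In mutant replicates 1 to 5 they were 2107, 1507, 1909.6, 1248 and 1754. The groups overlapped, with mutant replicates 2 and 4 below every control and control replicates 1, 3 and 5 above every mutant. The mean was 2126 ± 497 in control and 1705 ± 337 in mutant livers (SD, n = 5 per genotype). Its log2 fold change, -0.31 ± 0.20 (SE), had a 95% interval of -0.75 to 0.12 and an adjusted p of 0.428 by limma. That interval spans ratios of mutant to control from 0.596 to 1.09. The log2 fold change was -0.19 without control replicate 1 (limma adjusted p = 0.479) and -0.20 without mutant replicate 4 (limma adjusted p = 0.687). It moved the other way, to -0.42, without control replicate 2 (limma adjusted p = 0.249) and to -0.39 without mutant replicate 1 (limma adjusted p = 0.301).

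miR-181b, known as a brake on endothelial NF-kappaB signalling, ranked 132 by mean level and had the clearest separation of the genotypes. Control replicates 1 to 5 held 500.2, 393, 495, 456 and 431 normalised reads, and mutant replicates 1 to 5 held 371, 375, 381, 341 and 371. Every mutant library lay below every control library, although the lowest control, replicate 2 at 393, was close to the highest mutant, replicate 3 at 381. An order of this kind was found for 7 of 285 miRNAs, or 2.46%, and for 1 of the 4 members. The mean was 455 ± 44.8 in control and 368 ± 15.4 in mutant livers (SD, n = 5 per genotype), a ratio of mutant to control of 0.812 on the fitted scale. The log2 fold change was -0.30 ± 0.13 (SE), with a 95% interval of -0.59 to -0.01. Its unadjusted limma p of 0.0439 ranked 61 among the 285, and its limma adjusted p was 0.205, so it was not called.

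In bulk liver, fewer cells of a type that holds miR-181b and less miR-181b per cell cannot be told apart. The summed level of both endothelial markers ran from 113035 to 160119 normalised reads in controls and from 114892 to 160253 in mutants, and 0 of the 2 passed the test, at log2 fold changes of -0.02 for miR-126-3p and -0.09 for miR-126-5p. Of the 8 leukocyte markers 0 passed, and their summed level ran from 18605 to 32063 in controls and from 18085 to 26075 in mutants. Most of that sum is miR-146a, at a log2 fold change of -0.21 (limma adjusted p = 0.590). The 8 log2 fold changes ran from -0.47 for miR-150 to 0.49 for miR-155, with 4 of them below 0. Over all 285 miRNAs, 10.9% were called higher and 2.11% lower. No marker of either list was at 0 in every library. Their part in the miR-181b values was not tested.

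miR-181d ranked 159 by mean level. Control replicates 1 to 5 held 269, 138, 202, 219 and 246 normalised reads, and mutant replicates 1 to 5 held 195, 197, 187, 227 and 210.5. All mutant values lay inside the range of the controls. The mean was 215 ± 50.1 in control and 203 ± 15.6 in mutant livers (SD, n = 5 per genotype). The log2 fold change of -0.05 ± 0.20 (SE) had a 95% interval of -0.48 to 0.38, with an adjusted p of 0.952 by limma. The sign was not fixed by the data: without control replicate 1 the value was 0.04, without control replicate 5 it was 0.01, and without control replicate 2 it was -0.20.

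miR-181c, encoded beside miR-181d in the Nanos3 intron, was the least abundant member and ranked 203. Control replicates 1 to 5 held 135, 45.5, 40.5, 52.2 and 42.1 normalised reads, and mutant replicates 1 to 5 held 63.4, 45.8, 50.5, 57.4 and 50.6. Control replicate 1 exceeded the mean of the other 4 controls, 45.1 ± 5.17 (SD, n = 4), by 3.00-fold. Its 169 reads were 15.8 reads per 1000000 listed reads, with an exact 95% binomial interval of 13.5 to 18.4, and the next highest library, mutant replicate 1, had 6.94 with an interval of 5.44 to 8.72. These intervals do not overlap. They cover counting error only, since reads without molecular identifiers are not independent molecules.

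The genotype difference of miR-181c rested on that library. With all libraries the mean was 63.1 ± 40.5 in control and 53.5 ± 6.89 in mutant livers (SD, n = 5 per genotype). The log2 fold change was then -0.07 ± 0.32 (SE), the 95% interval -0.78 to 0.63 and the adjusted p 0.952 by limma. Without control replicate 1 the log2 fold change was 0.24, with a limma adjusted p of 0.388, so the direction turned and no call was made either way. The other miR-181 members were higher in control replicate 1 than in the mean of the other controls by 1.50-fold for miR-181a, 1.34-fold for miR-181d and 1.13-fold for miR-181b.

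**Figure D2:**
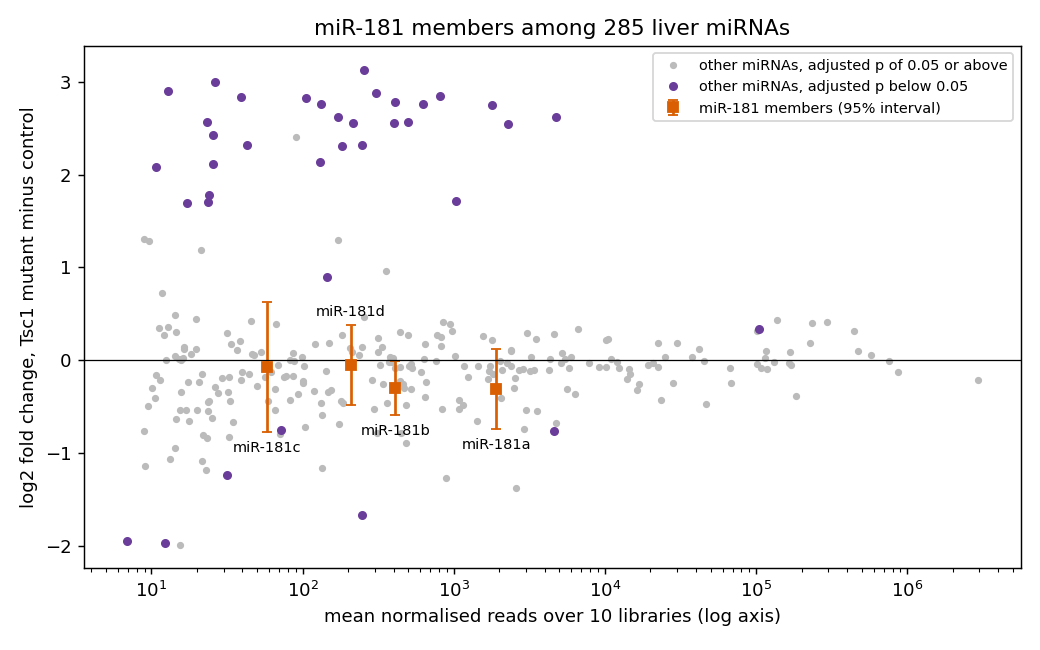
Log2 fold change (Tsc1 mutant minus control) against mean normalised reads (log axis) for 285 miRNAs, with 95% limma intervals for the miR-181 members. The members sit between -0.31 and -0.05, amid miRNAs that were not called, and only the interval of miR-181b, from -0.59 to -0.01, leaves out 0.

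Summed over its members, the family held 3798, 2115, 2885, 2621 and 2876 normalised reads in control replicates 1 to 5, and 2737, 2125, 2528, 1873 and 2387 in mutant replicates 1 to 5. The groups overlapped: control replicate 2 lay below 4 of the 5 mutants. The log2 difference of the sum, mutant minus control, was -0.28 ± 0.17 (SE), a ratio of 0.822, with a 2-sided exact permutation p of 0.127 over 252 splits, for which the smallest possible p is 0.00794. Without control replicate 2 the log2 difference was -0.38 and the exact permutation p was 0.0317, below 0.05. Without control replicate 1 it was -0.17 (exact permutation p = 0.238), and the range without single libraries was -0.38 to -0.17. Control replicate 2 is the one with high biliary epithelial and striated muscle miRNAs, and their part in its low family sum was not tested.

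The order of the members was fixed. In 10 of 10 libraries miR-181a was above miR-181b, miR-181b above miR-181d, and miR-181d above miR-181c, and no 2 neighbours in this order overlapped over all libraries. The narrowest step was between the lowest miR-181d value, 138 normalised reads in control replicate 2, and the highest miR-181c value, 135 in control replicate 1. Mature miRNAs differ little in length, but adapter ligation favours some end sequences, so levels of different members are not exact molar amounts.

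As a share of the family, miR-181a gave 74.1 ± 1.62% in control and 72.7 ± 4.11% in mutant livers (SD, n = 5 per genotype). The share of miR-181b was 16.3 ± 2.16% and 16.0 ± 1.92%, that of miR-181d 7.50 ± 0.898% and 8.94 ± 1.99%, and that of miR-181c 2.11 ± 0.869% and 2.33 ± 0.425%. The family as a whole made up between 0.0201% and 0.0445% of listed reads per library.

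Ratios between members do not depend on the scaling of a library, and 3 were compared. The ratio of miR-181a to miR-181b, the products of the chromosome 1 and 2 hairpins, was 4.64 ± 0.757 in control and 4.62 ± 0.804 in mutant livers (SD, n = 5 per genotype). Its log2 difference was -0.01 ± 0.15 (SE; exact permutation p = 0.952, adjusted p over the 3 ratios = 0.952). It was highest in replicate 1 of both genotypes, at 5.78 in the control and 5.68 in the mutant.

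The ratio of miR-181c to miR-181d, the products of the Nanos3 intron, was 0.288 ± 0.133 in control and 0.264 ± 0.0371 in mutant livers (SD, n = 5 per genotype). The log2 difference was -0.02 ± 0.29 (SE; exact permutation p = 0.937, adjusted p = 0.952), and it was 0.20 without control replicate 1. That library was again the highest, at 0.501, against 0.171 to 0.330 in the other controls. The ratio of miR-181a plus miR-181b to miR-181c plus miR-181d was 9.50 ± 1.14 in control and 8.15 ± 1.66 in mutant livers (SD, n = 5 per genotype). Its log2 difference was -0.24 ± 0.16 (SE; exact permutation p = 0.183, adjusted p = 0.548), with the lowest value, 5.60, in mutant replicate 4. Without that library the log2 difference was -0.11 (exact permutation, adjusted p = 0.940).

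**Figure D3:**
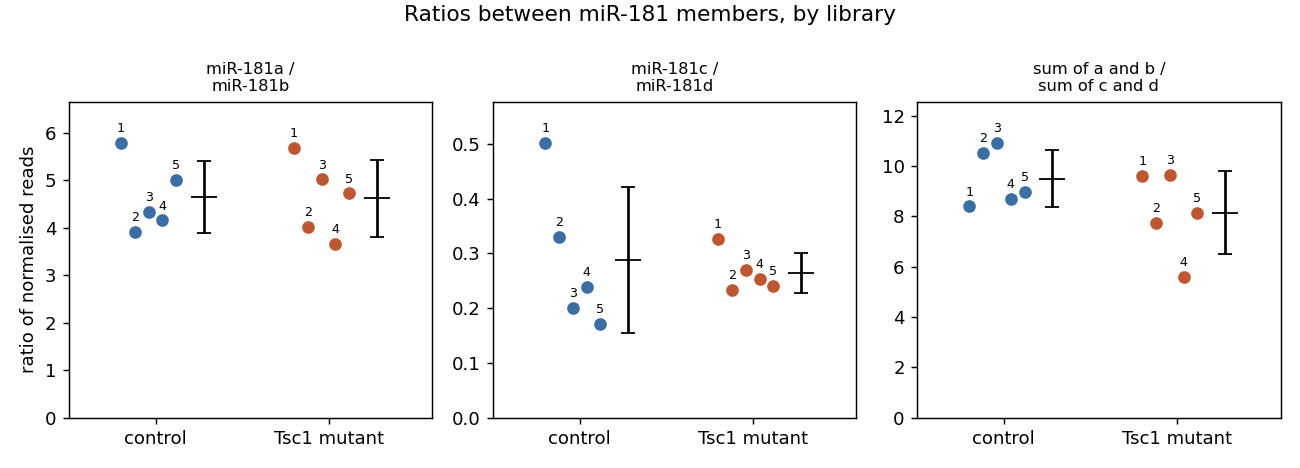
Ratios of normalised reads between miR-181 members (linear axes from 0) in each of 5 control and 5 Tsc1 mutant livers, with replicate numbers, mean and SD. Both libraries numbered 1 are highest in their group for miR-181a over miR-181b and for miR-181c over miR-181d, and the genotypes overlap in each panel.

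miR-181a and miR-181b, which share both hairpin couples, varied most alike among the members, while miR-181c and miR-181d did not stand out. Over the 10 libraries the Pearson correlation of log2 values was 0.77 between miR-181a and miR-181b, 0.50 between miR-181c and miR-181d, and between 0.29 and 0.53 for the other 4 combinations. With the genotype means removed these were 0.76, 0.50 and 0.41 to 0.57. Without both libraries numbered 1, r over the other 8 was 0.80 between miR-181a and miR-181b and 0.15 between miR-181c and miR-181d, and it turned to -0.63 between miR-181a and miR-181c and to -0.66 between miR-181b and miR-181c. The positive correlations of miR-181c with those 2 members therefore rested on these libraries. All are a description, since the libraries share depth and scaling. The family sum followed miR-181a, its main component (r = 0.99). miR-181b, although part of the sum, followed it at r = 0.81. Each miRNA outside the family named in the next paragraph followed the sum more closely, at 0.84 to 0.91. The part of shared hairpins in the likeness of miR-181a and miR-181b was not tested. The correlation of miR-181c with the sum was 0.57 over 10 libraries and -0.61 over the 8. Genotype means were not removed from the values over 8 libraries. There the log2 fold changes were -0.28 for miR-181a, -0.27 for miR-181b and 0.18 for miR-181c. Control replicates 2 to 5 held 45.1 ± 5.17 normalised reads of miR-181c (SD, n = 4), where counting error alone was 12.5 to 18.0% per library. What gave the negative correlations was not tested.

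The 5 miRNAs outside the family whose log2 level was most like the log2 family sum, among 241 whose mean reached 20 normalised reads, were miR-151-3p (Pearson r = 0.91 over 10 libraries), miR-30b (0.88), miR-19a (0.86), miR-1839-5p (0.85) and miR-425 (0.84). Without both libraries numbered 1, r over the other 8 was 0.90 for miR-151-3p, 0.83 for miR-30b, 0.71 for miR-19a, 0.87 for miR-1839-5p and 0.65 for miR-425. Like the family, none of these 5 passed the test between genotypes. By limma, miR-151-3p was at -0.31 ± 0.17 on the log2 scale (SE, adjusted p = 0.345) and miR-425 at -0.30 ± 0.15 (SE, adjusted p = 0.292). miR-30b was at -0.09 ± 0.15 and miR-1839-5p at -0.03 ± 0.13, near no difference. miR-19a was at -0.49 with a wide SE of 0.68.

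A list of 21 other miRNAs of lymphocyte development and activation was in the table in full. Of these 1 was higher, miR-29a, 0 were lower, and the median log2 fold change was -0.03. Over all 285 miRNAs, 10.9% were called higher and 2.11% lower. miR-29a, which represses T-bet and collagen messenger RNAs, was at 92084 ± 7801 normalised reads in control and 116048 ± 5673 in mutant livers (SD, n = 5 per genotype). It rose by 0.34 ± 0.10 on the log2 scale (SE, limma adjusted p = 0.0395). That call was lost when any 1 library other than control replicate 1 was left out, in 9 of 10 cases. The most abundant of the list, miR-21, was at -0.12 (limma adjusted p = 0.917).

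Of 20 miRNAs linked to TGF-beta response and liver tumour or progenitor states, 0 were higher and 0 lower, with log2 fold changes from -0.89 to 1.30 and a median of -0.11. The shares over all 285 miRNAs, 10.9% higher and 2.11% lower, apply beside this count and those below. Among the other marker lists 0 of 6 biliary epithelial, 0 of 3 listed striated muscle, 0 of 6 stellate and smooth muscle and 0 of 3 erythroid miRNAs passed. Their median log2 fold changes were -0.77, -1.27, -0.08 and 0.11, the first 2 with control replicate 2 far above the rest. Of the 5 hepatocyte miRNAs 1 was higher, miR-802, at 1.72 ± 0.24 (SE; limma adjusted p = 0.000258).

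**Figure D4:**
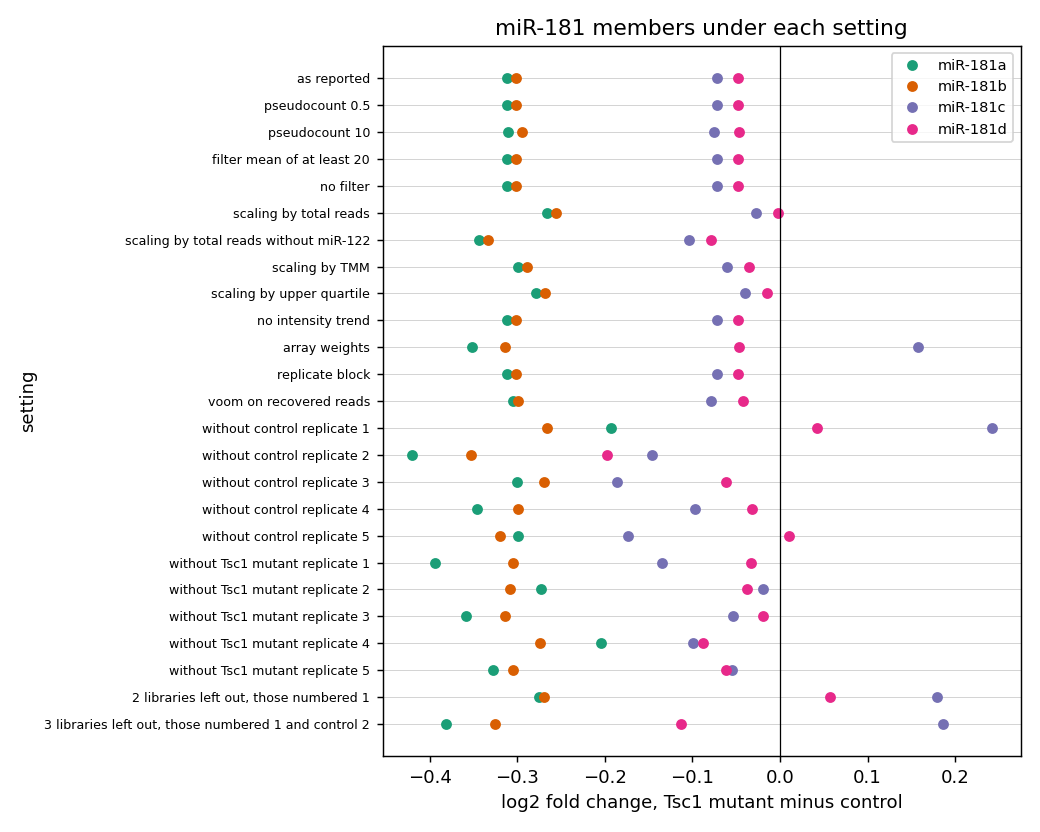
Log2 fold change (Tsc1 mutant minus control) of each miR-181 member under the reported fit and 24 other settings. miR-181a and miR-181b stay below 0 throughout, between -0.42 and -0.19 and between -0.35 and -0.26, while miR-181c and miR-181d fall on both sides of 0.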

How the data were processed

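Small RNA libraries from 10 livers were analysed from 1 deposited table. It holds a normalised signal, deposited after the authors had divided the reads of each library by its own factor. The authors used DESeq, per the submitters' processing notes. The sources used here do not give the aligner, annotation, build or filter. Each library's values were whole multiples of 1 step, within 0.001 of a read in 100% of values, and the step was taken as 1 read. Few low values per library stand behind it, so depths, read numbers and counting errors rest on that reading of the step. Columns were matched to samples by library number, and 0 of 45 library pairs agreed within sampling noise (chi-square).

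Log2(value + 1) of all 285 miRNAs (mean of at least 5, met by all) was fitted with limma 3.58.1 in R 4.3.3 with an intensity trend, Benjamini-Hochberg adjustment over all miRNAs and a threshold of 0.05. The fit was tested on simulated data. Sums and ratios were compared by 2-sided exact permutation tests. All family members are named, with the 5 miRNAs most correlated with their sum and the called or most abundant members of each list. Members and lists were chosen with earlier results of these data known. Genes of hairpins came from GENCODE M21. Alternatives were other pseudocounts, filters, scalings (TMM factors were computed directly) and models, a replicate block and left-out libraries. Figures were drawn with matplotlib 3.10.9.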

Additional observations from a re-analysis of the deposited data

Results flagged for a closer look

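In 2 of 16 groups of 5 values (each member, the family sum and the 3 ratios in each genotype) 1 library was separated from the remaining 4 by a wide gap, where chance gives about 0.8. The groups overlap, since sums and ratios are built from the members. For miR-181c, control replicate 1 was far above the other controls at 135 normalised reads, with a gap of 0.877 of the group's range. For miR-181b, Tsc1 mutant replicate 4 was the lowest at 341 normalised reads, with a gap of 0.757 of the range. The latter lies on the far side from the controls, so the separation of the miR-181b groups does not rest on it. Its counting error alone, at 238 reads, was 6.48%. The coefficient of variation of miR-181b over all mutants was 4.18%, below that error, so this gap need not set the liver apart.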

How the results depend on the processing

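No member was called in any of 24 other settings, in either direction. The adjusted p of miR-181b ran from 0.0524 with array weights to 0.392, and its log2 fold change from -0.35 to -0.26. That of miR-181a stayed between -0.42 and -0.19. With libraries left out singly, miR-181c ran from -0.19 to 0.24 and miR-181d from -0.20 to 0.043. Otherwise miR-181c turned to 0.16 with array weights, 0.18 without both libraries numbered 1 and 0.19 with control replicate 2 left out as well, and miR-181d to 0.057 without both numbered 1. The family sum ran from -0.38 to -0.17 with single libraries left out, and passed at -0.31 (exact permutation p = 0.0476) when scaled by total reads without miR-122. The log2 difference of miR-181a over miR-181b ran from -0.089 to 0.073 and that of miR-181c over miR-181d from -0.18 to 0.20 with single libraries left out. That of a and b over c and d ran from -0.31 to -0.11. The ratio of miR-181c to miR-181d was at 0.13 without both libraries numbered 1 and 0.30 without control replicate 2 too. The cause of these turns was not tested.

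Over all miRNAs, 6 were lower, against 23 with array weights, 10 with the replicate block, 11 and 13 in the settings without 2 and 3 libraries, and 2 to 10 with single libraries left out (10 without control replicate 1, 3 without control replicate 3 or 5, 2 without Tsc1 mutant replicate 4). Same-numbered libraries were correlated in their deviations at 0.81, 0.16, -0.02, 0.46 and 0.05, and 4 of 10 correlated best with their own number, so the numbers were not taken as pairs. With the replicate block the family sum kept its difference of -0.28 (permutation p = 0.125). With so few same-numbered libraries to exchange, that permutation test could not reach a p below 0.05, so it decides nothing. The limma adjusted p with the replicate block was 0.153 for miR-181a and 0.188 for miR-181b. The planned count models on whole reads were not run. Voom on whole reads, added after the data were seen, left miR-181b at -0.30. Depth limits miR-181c most: its libraries held 31 to 169 reads, a counting error of up to 18.0%.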

Other observations

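The libraries numbered 1 resembled each other within the family as well. Control replicate 1 and Tsc1 mutant replicate 1 were each the highest of their group for miR-181a, for miR-181c, for the family sum and for the ratio of miR-181a to miR-181b. They were also highest in their groups for the summed leukocyte markers, at 32063 and 26075 normalised reads, and for both lists of lymphocyte and of TGF-beta and tumour miRNAs. Both of these lists include miR-21, with means of 912407 normalised reads in control and 823037 in mutant livers. It makes up most of each sum, so the sums of these lists largely repeat each other. The libraries numbered 1 were lowest in their groups for the endothelial list, at 113035 and 114892, and for the hepatocyte list, at 3424630 and 3713770. The sums of a library share its scaling, so these higher and lower sums are not independent of each other. The depths of the libraries numbered 1, 10677652 and 10522653 reads, lay inside the range of the other libraries. The part of these other miRNAs in the values was not tested.

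miR-181b was among the least variable miRNAs of the table. Its SD within genotypes was 0.11 on the log2 scale, rank 6 from the lowest of 285. Among the mutants its coefficient of variation was 4.18%, below the 4.76 to 6.48% that counting error alone gives a library at its depth there, and among the controls it was 9.85%. By the same measure miR-181d ranked 68, miR-181a 85 and miR-181c 176 from the lowest. The fitted ratios of mutant to control were close, 0.806 for miR-181a and 0.812 for miR-181b, while the groups overlapped for miR-181a and not for miR-181b.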
